A study of Mus musculus with 2 samples.

Results

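The precursors of the Mir106a-Mir363 and Mir106b-Mir25 clusters, the relatives of the Mir17hg polycistron, were followed in the stomach of B6NCrl mouse embryos aged 14.5 days. They were chosen by gene identity, as the precursors that the annotation places in either cluster, and comprise 9 of the 1973 miRNA genes counted. Earlier results of these data were known when the choice was made. The Mir106a-Mir363 cluster holds 6 of them (Mir106a, Mir18b, Mir20b, Mir19b-2, Mir92-2 and Mir363) and the Mir106b-Mir25 cluster holds 3 (Mir106b, Mir93 and Mir25). Small RNA below 30 nt was sequenced from 2 biological replicates of 1 group, and the labels name no treatment or engineered allele. Each library is described as a single stomach of an embryo, with a different day of collection for each, while the sex is given as a mixture, so that pooled embryos cannot be told apart from a single one. Replicate and day of collection also cannot be told apart. No contrast between conditions exists, and the questions asked here are how strongly each paralogue was expressed, how the members differed among themselves and how far the libraries differed.

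MicroRNAs are cut from hairpin precursors and guide the silencing complex to messenger RNAs that match their seed, the bases at positions 2 to 8. Mir17hg and its paralogues arose by duplication of an ancestral cluster and give miRNAs with 4 seeds between them. The miR-17 family is known to repress inhibitors of the cell cycle such as Cdkn1a, and the miR-25 family represses Cdkn1c and the death inducer Bcl2l11. The Mir106b-Mir25 cluster is carried by Mcm7, which encodes a subunit of the replicative DNA helicase and is transcribed as cells prepare to divide, and its human counterpart is known to be raised in gastric tumours. The Mir106a-Mir363 cluster is known from pluripotent cells, and lies at a site of retroviral integration in mouse T cell leukaemias.

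The mature sequences of the main arms show how close the members are to each other and to Mir17hg. They were taken from RefSeq on GRCm38.p6, where all 9 members had an entry, and are written 5′ to 3′ with the seed in capitals. The miR-17 family had 4 members in the paralogue clusters and 2 in Mir17hg:
miR-106a-5p of Mir106a: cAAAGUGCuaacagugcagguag
miR-20b-5p of Mir20b: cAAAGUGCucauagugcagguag
miR-106b-5p of Mir106b: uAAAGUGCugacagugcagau
miR-93-5p of Mir93: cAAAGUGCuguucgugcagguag
miR-17-5p of Mir17: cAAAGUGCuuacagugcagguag
miR-20a-5p of Mir20a: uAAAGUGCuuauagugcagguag

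The miR-18, miR-19 and miR-25 families had 1, 1 and 3 members in the paralogue clusters:
miR-18b-5p of Mir18b: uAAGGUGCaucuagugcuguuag
miR-18a-5p of Mir18: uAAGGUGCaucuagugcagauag
miR-19b-3p of Mir19b-2: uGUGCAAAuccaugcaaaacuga
miR-19a-3p of Mir19a: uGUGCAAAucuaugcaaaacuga
miR-92a-3p of Mir92-2: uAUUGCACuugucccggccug
miR-363-3p of Mir363: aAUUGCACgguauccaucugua
miR-25-3p of Mir25: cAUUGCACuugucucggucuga

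Substitutions are given with the Mir17hg base first and positions counted from 1 at the 5′ end. Mir106a differed from Mir17 by a single base (U10A), Mir18b from the Mir18 product by A18U and A20U, and Mir20b from Mir20a by U1C and U10C. The members of the Mcm7 cluster were more distant. Mir106b differed from Mir17 by C1U, U10G and G20A over 21 bases, Mir93 from Mir20a at 4 positions (U1C, U10G, A11U and A13C), and Mir25 from Mir92-1 by U1C, C14U and C18U. Outside its seed, Mir363 was the most divergent of these main arms, with 11 differences from the Mir92-1 product over 21 bases. Mir19b-2 and Mir92-2 gave the same mature sequence as Mir19b-1 and Mir92-1 of Mir17hg. Their hairpins are shown because the counts of these 4 genes can rest only on reads that reach beyond the stretch in common or lie outside it. That stretch is in capitals:
Mir19b-1 hairpin: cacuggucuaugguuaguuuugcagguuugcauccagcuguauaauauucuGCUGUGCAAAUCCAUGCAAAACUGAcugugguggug
Mir19b-2 hairpin: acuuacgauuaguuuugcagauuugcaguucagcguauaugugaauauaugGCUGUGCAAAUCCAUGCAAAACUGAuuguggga
Mir92-1 hairpin: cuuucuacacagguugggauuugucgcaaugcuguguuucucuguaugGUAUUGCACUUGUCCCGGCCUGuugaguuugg
Mir92-2 hairpin: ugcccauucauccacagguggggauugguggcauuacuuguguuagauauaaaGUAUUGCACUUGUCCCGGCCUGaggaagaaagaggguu

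The stretch in common was 25 nt for the Mir19b hairpins and 22 nt for the Mir92 hairpins, and it held the whole 23 nt and 21 nt mature sequence. Reads that mapped to several places are listed apart from the genes. They numbered 2437052 in replicate 1 and 2263676 in replicate 2, and the tables do not say which miRNAs they come from. The levels of Mir19b-2, Mir92-2 and their copies are therefore uncertain. The tables also give 1 count per precursor and do not separate its arms.

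Both clusters are compact and lie on the minus strand (GRCm38). The 6 precursors on chromosome X span 875 nt, from 52741693 (Mir363) to 52742567 (Mir106a). In GENCODE M21 the Mir106a hairpin overlaps the 3′ end of the noncoding transcript Kis2 by 5 nt, and no other gene than the miRNAs themselves is annotated over the other 5 hairpins. The 3 precursors on chromosome 5 span 498 nt, from 138165321 (Mir25) to 138165818 (Mir106b), and all lie in intron 13 of the longer coding transcript of Mcm7. Mir93 and Mir25 also overlap an exon of an Mcm7 transcript annotated with a retained intron. Mir17hg precursors span 836 nt on chromosome 14. The tables name no columns, and the strand columns were told apart by their values, the one that holds over 97% of all gene counts being taken as the genes' own strand. Every count of the 9 members was in that column, with 0 counts in the other in both libraries.

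Replicate 1 had 5004548 gene counts and replicate 2 had 4679914, and levels are counts per 1000000 of these (CPM). CPM is not divided by length, since each read was counted once, and the main arms compared measure 21 to 23 nt. Whether small RNAs of different sequence enter a library equally well was not tested, and the spread between libraries does not measure that. A count of 0 was given an upper limit of 3 counts, or 0.599 CPM in replicate 1 and 0.641 CPM in replicate 2. Such limits and all intervals cover counting error only. Markers of the labelled tissue were present, with totals between 5115 ± 617 CPM (Mir375, gastric and endocrine epithelium) and 155329 ± 12469 CPM (smooth muscle). Those of other cells ranged from 6.29 ± 0.43 CPM (pancreas) through 61.3 ± 6.41 CPM (Mir122 of liver) to 494 ± 15.5 CPM (Mir223 of myeloid cells). The Mir124a genes of neurons had 1 count in all, but they are copies that give the same mature miRNA, so reads common to them were not counted and no level can be read from that value. In bulk tissue, fewer cells that express a miRNA and less of it per cell cannot be told apart.

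The Mir106b-Mir25 cluster was far more abundant in the stomach than the X-linked cluster. Its total was 14060 CPM in replicate 1 and 14074 CPM in replicate 2 (14066.9 ± 10.3 CPM, SD, n = 2), or 1.41% of all gene counts. That SD depends on the scaling, at 304 CPM with TMM factors and 233 CPM with DESeq2 size factors. The Mir106a-Mir363 total was 120.5 and 139 CPM (129.9 ± 13.3 CPM). The log2 ratio between the clusters was 6.87 in replicate 1 and 6.66 in replicate 2 (6.76 ± 0.15), a 109-fold difference that is far larger than the spread between libraries. With 2 libraries no exact test can pass a threshold, so this and the other ratios between genes carry no p. The X-linked total includes Mir19b-2 and Mir92-2, whose shared reads were not counted. Within the miR-17 family alone, where no main arm occurs at a second locus, the log2 ratio was 8.14 ± 0.37, beside 6.76 for all members. The choice of members thus changed the size of the ratio and left its direction.

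**Figure D1:**
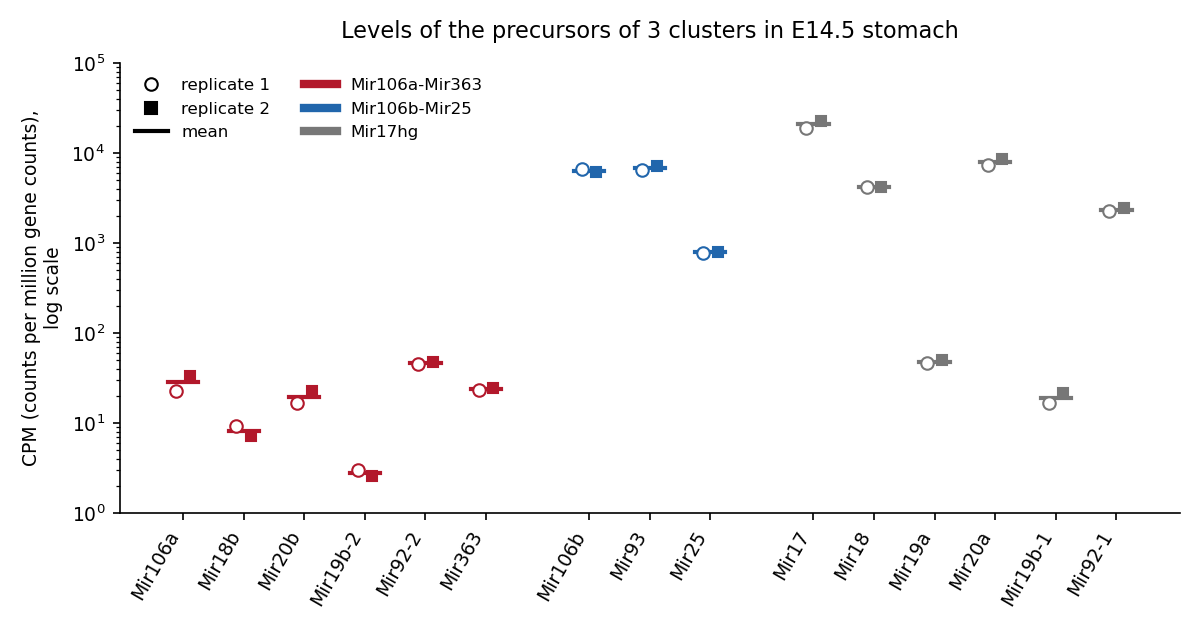
Level of each precursor of the Mir106a-Mir363, Mir106b-Mir25 and Mir17hg clusters in CPM on a log axis, with open circles for replicate 1, filled squares for replicate 2 and a line for the mean. The 6 X-linked precursors lie between 2.56 and 48.3 CPM in either library, and all 3 precursors of the Mcm7 intron lie at 769 CPM or higher.

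In the Mcm7 cluster, Mir93 and Mir106b were nearly equal and Mir25 was lower. Mir93 was counted 32852 times in replicate 1 and 33487 times in replicate 2, at 6564 and 7155 CPM (6860 ± 418 CPM), and ranked 29th of the 361 genes with 10 or more counts in both libraries. Mir106b was counted 33661 and 28606 times, at 6726 and 6113 CPM (6419 ± 434 CPM), and ranked 31st. Their ranges overlapped and their order changed, with Mir106b higher in replicate 1 and Mir93 higher in replicate 2. Mir25 was counted 3849 and 3773 times, at 769 and 806 CPM (788 ± 26.2 CPM). It lay below both neighbours in each library, 8.70-fold below Mir93 (log2 ratio 3.12 ± 0.04) and 8.14-fold below Mir106b (log2 ratio 3.03 ± 0.15). Mir93 held 48.8% ± 2.94 of the cluster's counts, Mir106b 45.6% ± 3.12 and Mir25 5.60% ± 0.18. The 3 hairpins share an intron. Mir25 lay below the other two by more than the spread between libraries, and Mir93 and Mir106b did not differ beyond it.

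In the X-linked cluster all 6 precursors were detected at low levels. Mir92-2, which gives miR-92a, was the highest as counted, at 45.4 and 48.3 CPM (227 and 226 counts; 46.8 ± 2.07 CPM). Mir106a, the relative of Mir17, had 22.8 and 33.8 CPM (114 and 158 counts; 28.3 ± 7.77 CPM). Mir363, which has no counterpart in Mir17hg at its place in the cluster, had 23.6 and 24.6 CPM (118 and 115 counts; 24.1 ± 0.70 CPM). The ranges of Mir106a and Mir363 overlapped, and Mir92-2 lay above both in each library. Mir20b, the relative of Mir20a, had 16.6 and 22.9 CPM (83 and 107 counts; 19.7 ± 4.44 CPM). Mir18b, the relative of Mir18, had 9.19 and 7.27 CPM (46 and 34 counts; 8.23 ± 1.36 CPM). Mir19b-2 was the lowest of the 9 members as counted, without the reads it shares with Mir19b-1, with 15 and 12 counts. Its 2.78 ± 0.31 CPM has an exact 95% binomial interval of 1.68 to 4.94 CPM in the first library and 1.32 to 4.48 CPM in the second. Both lower bounds lie above what a count of 0 would permit.

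Over all 9 members the order by mean level was Mir93, Mir106b, Mir25, Mir92-2, Mir106a, Mir363, Mir20b, Mir18b and Mir19b-2. The places of Mir92-2 and Mir19b-2 hold only for the reads counted, since those shared with their Mir17hg copies were left out. Of the 8 pairs of neighbours in this order, the ranges overlapped for Mir93 with Mir106b and for Mir106a with Mir363, and were separate for the other 6. The narrowest separation was between Mir363 and Mir20b, at 1.42-fold in replicate 1 and 1.07-fold in replicate 2, where the counting intervals overlap.

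**Figure D2:**
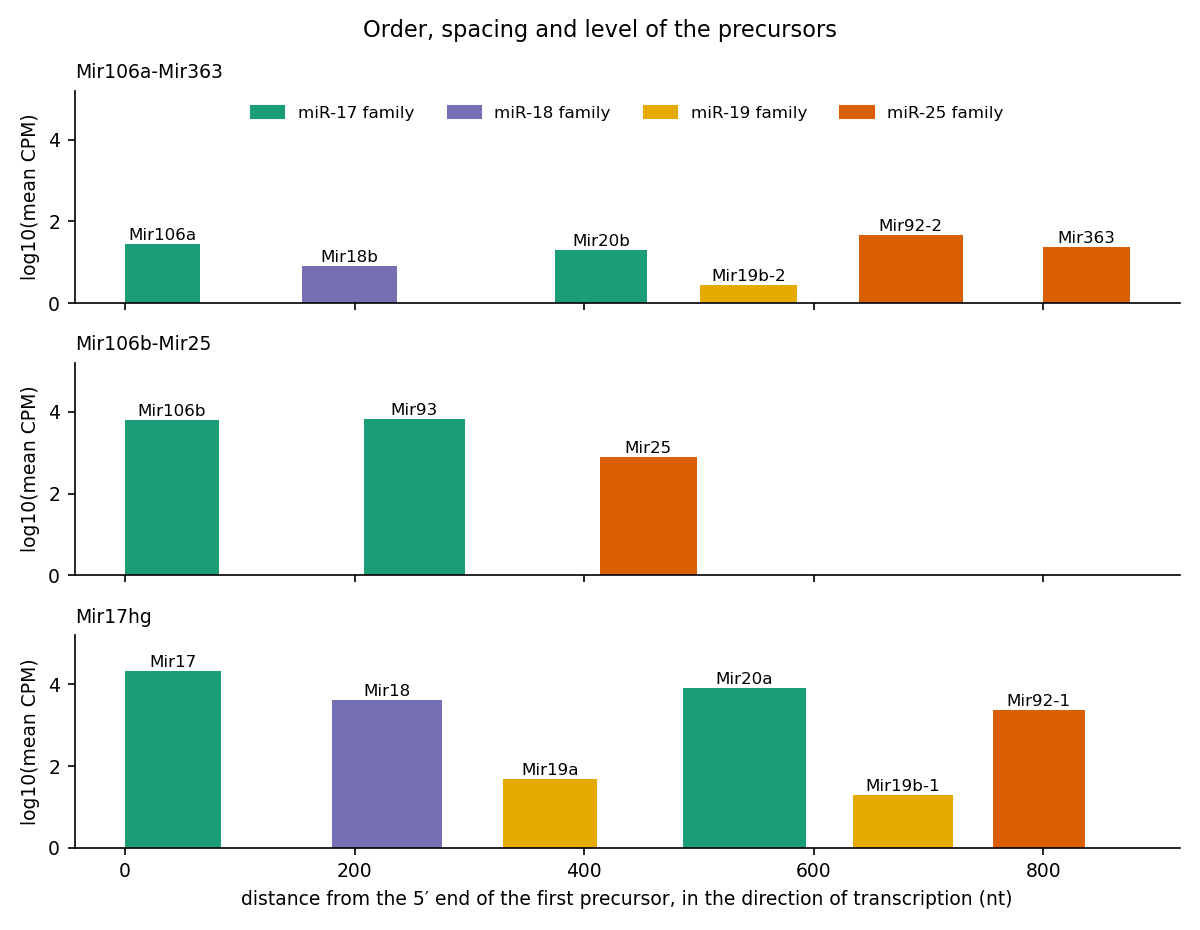
Position of each precursor from the first hairpin of its cluster in nt, in the direction of transcription, with bar height for log10 of the mean CPM and colour for the seed family. A bar of height 0 would stand for 1 CPM, and the miR-19 family has the lowest bar in the X-linked cluster (Mir19b-2) and in Mir17hg (Mir19b-1).

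Set against Mir17hg position by position, the X-linked relatives were lower throughout. Mir17 exceeded Mir106a by a log2 ratio of 9.55 ± 0.23 (9.71 and 9.39), Mir18 exceeded Mir18b by 9.01 ± 0.22 (8.86 and 9.17) and Mir20a exceeded Mir20b by 8.68 ± 0.19 (8.81 and 8.55). For the pairs with an identical mature sequence the gap was smaller, with Mir92-1 over Mir92-2 at 5.65 ± 0.02 and Mir19b-1 over Mir19b-2 at 2.78 ± 0.42. These 2 pairs are the ones whose shared reads were left out. The counts of the near-identical relatives were small shares of their Mir17hg counterparts. Mir106a, a single base away from Mir17, had 0.119% and 0.149% of the Mir17 counts, Mir18b 0.216% and 0.174% of the Mir18 counts, and Mir20b 0.223% and 0.268% of the Mir20a counts. Mir363, whose main arm is 8 or more bases away from every other hairpin in the RefSeq table, stood at 24.1 CPM. How far misread bases of the abundant relative contribute to the counts of Mir106a, Mir18b and Mir20b was not tested. The level of Mir363 does not answer that question.

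The Mcm7 cluster came much closer to Mir17hg. Mir93 reached nearly the level of Mir20a, which exceeded it by a log2 ratio of 0.18 in replicate 1 and 0.26 in replicate 2 (0.22 ± 0.05). Mir17 exceeded Mir106b by 1.51 and 1.89 (1.70 ± 0.27), and Mir92-1 exceeded Mir25 by 1.56 and 1.61 (1.58 ± 0.04). In each of these pairs the Mir17hg gene was the higher in both libraries. Over whole clusters, Mir17hg (33155 and 37875 CPM) exceeded the Mcm7 cluster 2.52-fold, a log2 ratio of 1.33 ± 0.13. It exceeded the 9 paralogues together by 1.32 ± 0.13. Mir92-1 and Mir19b-1 lack the reads they share with their X-linked copies, and no Mcm7 member has such a copy. The Mir92-1 ratio and both cluster ratios therefore depend on reads that were not counted. Without the precursors of a shared mature sequence, Mir17hg exceeded the paralogues by 1.22 ± 0.14.

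Grouped by seed over the 3 clusters, the paralogue clusters supplied between 26.4% and 33.4% of the miR-17 and miR-25 family counts in either library. They supplied few of the miR-18 and miR-19 family counts. The miR-17 family totalled 42199 ± 3249 CPM over the 3 clusters. Of its counts, the paralogues held 33.4% in replicate 1 (Wilson 95% interval 33.2 to 33.6) and 29.9% in replicate 2 (29.7 to 30.1), or 31.7% ± 2.45. Nearly all of that came from the Mcm7 intron, with Mir93 at 16.3% ± 0.26 and Mir106b at 15.3% ± 2.21, while Mir106a and Mir20b together held 0.113% ± 0.020. The share of Mir93 changed less between the libraries than that of Mir106b. Their levels had similar SDs, at 6.09% of the mean for Mir93 and 6.76% for Mir106b. Mir93, Mir17 and Mir20a were all higher in replicate 2, and Mir106b was lower.

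Over the 3 clusters the miR-25 family totalled 3218 ± 165 CPM, without Mir92b and Mir32, which have the same seed and lie elsewhere. Mir25 held 24.8% of this in replicate 1 (24.1 to 25.5) and 24.2% in replicate 2 (23.5 to 24.9), or 24.5% ± 0.44. Mir92-2 held 1.46% ± 0.010 and Mir363 0.749% ± 0.017. Mir92-1 held the other 73.3% ± 0.47. Without Mir92-1 and Mir92-2, whose shared mature reads were not counted, only Mir363 was left beside Mir25 in the 3 clusters. Mir25 then held 97.0% of those counts, so its share depends on how miR-92a is counted. Mir18b held 0.215% and 0.174% of the miR-18 family (0.195% ± 0.030, with Wilson intervals of 0.162 to 0.287 and 0.124 to 0.243). Mir19b-2 held 4.55% and 3.45% of the miR-19 family, on 330 and 348 counts in all, and the family total was 70.2 ± 5.95 CPM. Mir19b-1 and Mir19b-2 lack the reads they have in common, so this total and these shares depend on how miR-19b is counted.

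**Figure D3:**
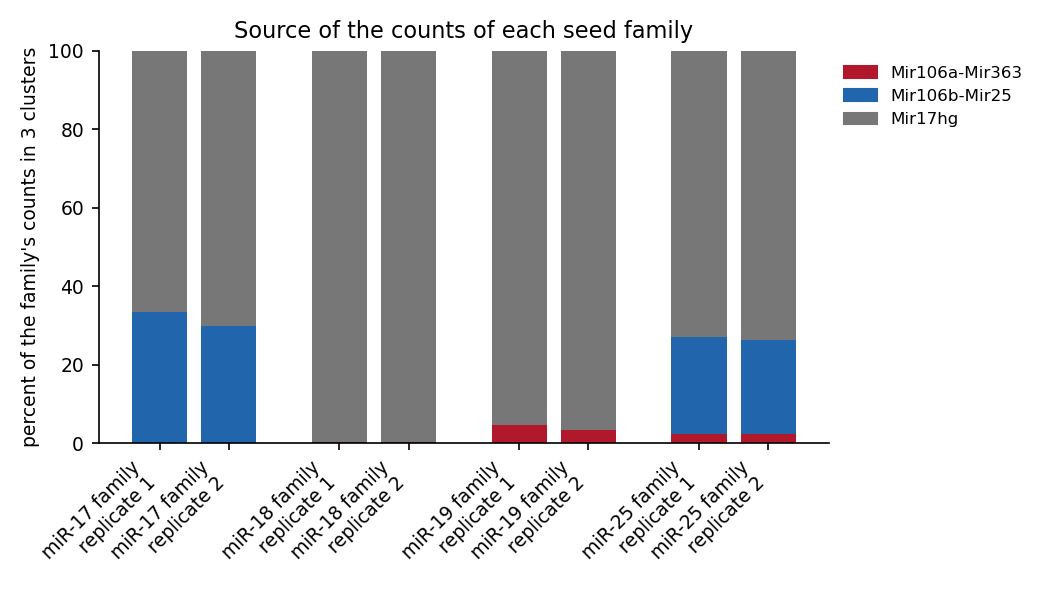
Percent of the counts of each seed family in the 3 clusters that came from the Mir106a-Mir363 cluster, the Mir106b-Mir25 cluster and Mir17hg, in stacked bars for each library. The Mcm7 cluster supplies 33.3% and 29.8% of the miR-17 family and 24.8% and 24.2% of the miR-25 family, and has no member in the miR-18 and miR-19 families.

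Of the other genes with the same seeds, Mir92b and Mir32 were detected, both at levels below Mir25 and above the X-linked members of its family. The RefSeq table holds 4 further precursors with a mature sequence of these seeds, and all 4 were among the genes counted. Mir92b (263 ± 36.1 CPM) and Mir32, in Tmem245 (178 ± 4.41 CPM), share the seed of Mir25, which exceeded them 3.01-fold and 4.42-fold. Mir367, of the Mir302 cluster, and the X-linked Mir6383, which has the seed of Mir93, had 0 counts in both libraries.

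A pair of other polycistrons gave a scale for the X-linked cluster. The Mir322 cluster lies 305429 nt from Mir106a on the same strand of chromosome X, at 53047997 to 53054349, and is led by Mir322, a member of the miR-15 and miR-16 seed family. It totalled 23482 and 22718 CPM (23100 ± 540 CPM), a log2 ratio of 7.48 ± 0.18 over the Mir106a-Mir363 cluster. The Mir302 cluster, known from pluripotent cells, totalled 126.1 and 125.6 CPM. The log2 ratio of the Mir302 cluster over the Mir106a-Mir363 cluster was 0.07 in replicate 1 and -0.15 in replicate 2 (-0.04 ± 0.15), so the totals did not differ beyond the spread between libraries. Within these polycistrons the highest member exceeded the lowest 16.8-fold in the X-linked paralogue cluster, 8.71-fold in the Mcm7 cluster, 1088-fold in Mir17hg (Mir17 over Mir19b-1) and 1062-fold in the Mir322 cluster (Mir322 over Mir450-2). The lowest members of the X-linked paralogue cluster, Mir17hg and the Mir322 cluster (Mir19b-2, Mir19b-1 and Mir450-2) each share a mature sequence with a copy at another locus, so these 3 folds depend on the reads that were not counted.

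A last comparison asked which members differed between the libraries. With an exact two-sided binomial test on the counts and Benjamini-Hochberg adjustment over all 361 detected genes, 3 of the 9 members differed at an adjusted p under 0.05, against 42.1% of all detected genes. This test sets these libraries side by side and measures no condition. Mir106a was higher in replicate 2, with a log2 ratio of replicate 2 over replicate 1 of 0.57 (95% interval 0.21 to 0.93, adjusted p = 0.00368). Mir93 was also higher in replicate 2, by a log2 ratio of 0.12 (0.10 to 0.15, adjusted p = 1.22e-27). Mir106b was lower in replicate 2, at -0.14 (-0.16 to -0.12, adjusted p = 1.27e-31). Over all detected genes, 24.7% were called higher in replicate 2 and 17.5% higher in replicate 1. Mir93 and Mir106b thus moved in opposite directions by 1.09-fold and 1.10-fold. Both directions held under each scaling tried, but TMM and DESeq2 factors shift every log2 ratio by only -0.046 and -0.035. Such shifts could not reverse either direction. With 33.3% of members called beside 42.1% of all detected genes, no trait of these 2 hairpins is read from the difference.

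No member reached an absolute log2 ratio of 1 together with the adjusted p, where 1.11% of detected genes did, and 5 of the 9 had an unadjusted p under 0.05, as did 178 of the 361 detected genes. The ratios of the 9 ran from -0.34 (Mir18b) to 0.57 (Mir106a), with a median of 0.07 beside 0.04 for all detected genes. Mir20b stood at 0.46 (0.04 to 0.89, adjusted p = 0.0654), Mir25 at 0.07 (0.003 to 0.13, adjusted p = 0.0854) and Mir92-2 at 0.09 (-0.18 to 0.36). Mir363 was at 0.06 (-0.32 to 0.44). The intervals of Mir18b (-1.02 to 0.33) and Mir19b-2 (-1.45 to 0.97) were wider, and a difference within them was not detectable at this depth.

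**Figure D4:**
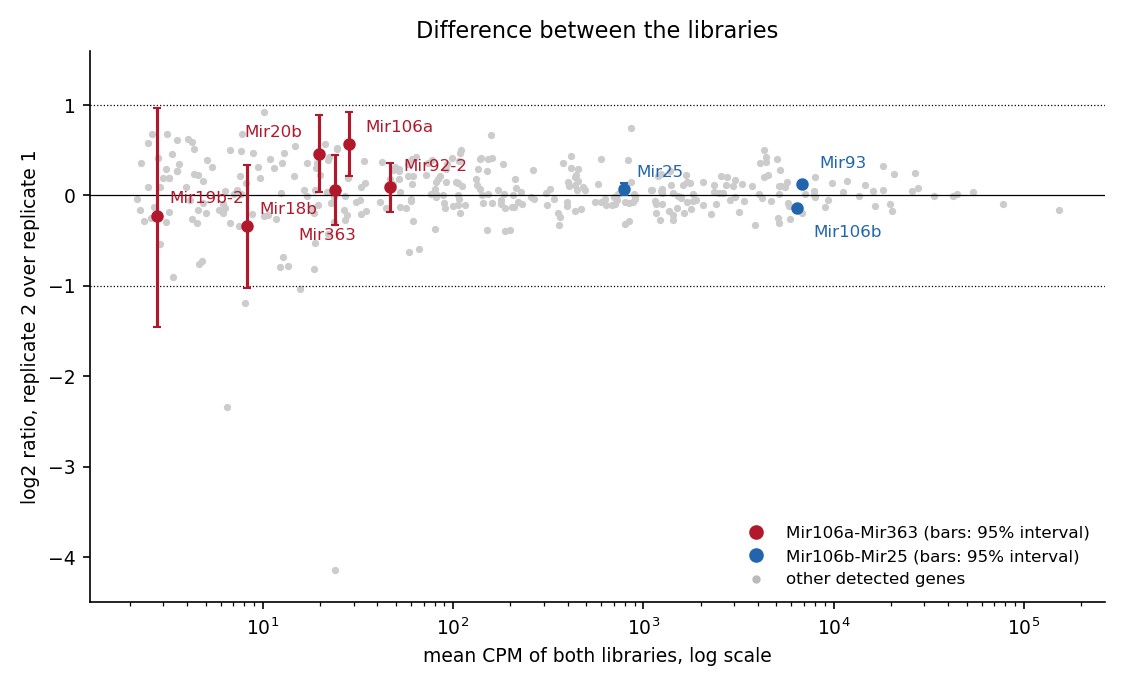
Log2 ratio of replicate 2 over replicate 1 against the mean CPM on a log axis for the 361 detected genes, with the 9 members in colour and bars for 95% intervals. Dotted lines mark a log2 ratio of 1 and -1, and all 9 members lie between them, with wider intervals for the X-linked precursors, which have fewer counts.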

How the data were processed

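MicroRNA sequencing libraries of 2 samples in 1 group were used. The authors deposited whole-number counts per gene, not normalized and with a table for each library. Per the file headers in the accompanying text, they derive from an alignment to mm10 with GENCODE M4. Which aligner and counter were used is not given in the sources used here. Of 3 unnamed count columns, the 1st was used. It equals the sum of the other two for every gene and was therefore taken to cover both strands. The 4 lines that name no gene were left out of totals: unmapped reads were 13.0% ± 0.72 of all reads, reads mapping to several places 27.6% ± 0.28, reads outside genes 2.41% ± 0.12 and ambiguous reads 0.

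Symbols and coordinates came from GENCODE M21 on the same assembly (1894 of 1973 genes matched, and the other 79 held 4 counts), and mature and hairpin sequences from RefSeq (GRCm38.p6). Levels are CPM, as mean ± SD. Detected means 10 or more counts in both libraries. With 1 group, edgeR's quasi-likelihood test has no contrast, so the libraries were compared with an exact conditional binomial test (scipy 1.17.1), tested first on simulated counts. Its p-values measure these libraries only. Alternatives used TMM factors (edgeR 4.0.16), size factors (DESeq2 1.42.0), other totals, the own-strand column, other count minimums, no members with a shared mature sequence, and each library alone.

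The members and gene lists were chosen with earlier results of these data known. Named genes are the members, the Mir17hg precursors, genes with the same seeds, the ends of the comparison clusters, the neighbours by level and markers of the tissue and of other cells.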

Additional observations from a re-analysis of the deposited data

How the results depend on the processing

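The log2 ratios of the Mcm7 cluster over the X-linked cluster and of Mir17hg over all paralogues kept their direction under each alternative run. Scaled to gene counts plus the reads that map to several places, the Mir106a-Mir363 total was 87.5 CPM and the Mir106b-Mir25 total 9471 CPM, and all 9 member levels were lower by the construction of that scale. With the own-strand column, which has a smaller total, the Mir106b-Mir25 total was 14464 CPM. Without the precursors whose mature sequence is found at another locus, the log2 ratio of the Mcm7 cluster over the X-linked cluster was 7.46, and with the miR-17 family alone, an alternative chosen after seeing the data, it was 8.14. The share of Mir25 in its family over the 3 clusters was 97.0% without those precursors, where only Mir363 was left beside it. With TMM factors, size factors or the own-strand column, each of the 9 member levels moved by less than 1 SD between libraries. The factors raise 1 library and lower the other, so they hardly change a mean. The own-strand column left every member count unchanged and only rescaled the levels. Leaving out 1 of 2 libraries cannot move a mean by 1 SD. None of these settings therefore says anything about the stability of the levels. With a minimum of 100 counts, 6 of the 9 members were detected. In each of the 5 alternatives of the test between libraries, 1 of them (a total without the 5 most abundant genes) chosen after seeing the data, 3 members passed the adjusted p, 2 of them higher in replicate 2, where between 20.5% and 46.0% of all genes tested passed. Depth limits the X-linked members, which have 12 to 227 counts. No paired analysis was possible because there is 1 group.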

Other observations

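The genes nearest to each paralogue in the order of mean CPM place the members among the other miRNAs of the stomach, as neighbours by level and nothing more. Mir93 stood between the epithelial miRNAs Mir200b (7037 ± 45.3 CPM) and Mir203 (6860 ± 663 CPM), and Mir106b between Mir203 and the imprinted Mir379 (5922 ± 750 CPM). Mir25 lay between Mir192, known from intestinal epithelium (801 ± 124 CPM), and Mir676 (736 ± 4.24 CPM). Among the X-linked members, Mir92-2 lay just below Mir19a of Mir17hg (48.2 ± 2.87 CPM) and just above Mir7j (46.8 ± 4.26 CPM). Mir106a stood between Mir204 (30.9 ± 1.16 CPM) and Mir1198 (28.2 ± 2.79 CPM), and Mir20b between Mir218-1 (20.0 ± 2.26 CPM) and Mir6540 (19.5 ± 4.14 CPM). Mir363 was next to Mir128-2 (24.4 ± 6.27 CPM) and Mir802 (23.9 ± 30.1 CPM), whose SD exceeds its mean. Mir18b lay between Mir129-1 (8.76 ± 0.90 CPM) and Mir1298 (8.17 ± 0.53 CPM), and Mir19b-2 between Mir5619 (2.80 ± 0.57 CPM) and Mir3094 (2.68 ± 0.16 CPM).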
